A study of Homo sapiens with 40 samples.

Results

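The response of MDA-MB-231 cells to 24 h of fluvastatin was set against their response to 24 h of a high dose of zoledronate, gene by gene. MDA-MB-231 is an established human triple-negative breast cancer cell line. The comparison rests on 16 of the 40 arrays of the study, chosen by agent, dose, time and lot as the sample labels give them. In lot I, 4 cultures received 2 µM fluvastatin and 4 were mock-treated with solvent for 24 h. In lot II, 4 cultures received 100 µM zoledronate and 4 were mock-treated for 24 h. Every fluvastatin array belongs to lot I and every 100 µM zoledronate array to lot II, so drug and lot cannot be told apart in full. The remaining arrays cover 30 µM zoledronate, 2 µM fluvastatin and controls at other times, and entered the fit as a shared estimate of the spread. Each drug was compared with the controls of its own lot, which removes an offset that treated and control arrays of a lot share, and nothing else. The doses are not matched either: the study's design text names 2 µM fluvastatin and 30 µM zoledronate as doses of like growth inhibition, and 100 µM lies above the latter.

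Both drugs act on the mevalonate pathway, which turns acetyl-CoA into cholesterol and into the isoprenoid lipids farnesyl and geranylgeranyl diphosphate. Statins such as fluvastatin block its early enzyme, HMG-CoA reductase, whereas nitrogen-containing bisphosphonates such as zoledronate block farnesyl diphosphate synthase (FDPS) further down. Small GTPases such as those of the Ras and Rab families need those isoprenoids as membrane anchors. The co-activators YAP and TAZ enter the nucleus of cells whose actin is under tension. When sterols run low, the SREBP factors switch on the genes of the pathway itself.

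Signals are log2 RMA values of Affymetrix Human Gene 1.0 ST arrays, each covering 18417 named genes, and the number of arrays limits their precision. An effect is the treated minus the control level on the log2 scale with its standard error (SE), from 4 pairs per drug. The difference of effects is the fluvastatin effect minus the zoledronate effect, so a positive value marks a gene that ended higher after fluvastatin than after zoledronate, each relative to its own control. A gene is said to rise, fall or differ when its adjusted p, by limma, was below 0.05. The mesenchymal gene VIM stood at 12.21 to 12.46 in the means of the 4 groups, while CDH1 at 4.60 to 4.82 and ESR1 at 4.8 to 4.96 were low in all of them, as the label of the line has it. Of 5 markers known to be low in the line, ERBB2 rose with zoledronate by 0.46 and differed (−0.38 ± 0.09, adjusted p = 0.018), a call lost without the replicate block. Of 5 measured markers of the line, AXL fell with both drugs and CAV1 fell with zoledronate by 0.51, and 0 differed. Of the markers of blood cells and of fibroblasts and endothelium, PTPRC at 3.26 to 3.53 and LUM at 3.02 to 3.17 lay near the lower end of the scale, and 10 of 13 passed in neither drug. The other 3 rose with both: PECAM1, an endothelial adhesion molecule, by 0.98 and 1.30, CD14, a monocyte receptor, by 0.52 and 0.42, and LYZ, lysozyme, by 0.71 and 1.93. LYZ also differed (−1.22 ± 0.25, adjusted p = 0.0054), from group means of 4.38 and 3.95 in the controls to 5.09 with fluvastatin and 5.88 with zoledronate. A second PECAM1 probe set changed by 0.51 with fluvastatin and 1.77 with zoledronate. With averaged probe sets, or without lot I replicate 1, 1 fibroblast or endothelial marker differed, against 0 in the main fit. The part of these markers in other results was not tested. RNA was measured in bulk, so fewer cells expressing a gene and less RNA per cell cannot be told apart.

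The difference of effects passed the threshold in 1065 of 18417 genes (5.78%), 766 of them higher with fluvastatin (4.16%) and 299 lower (1.62%). By itself fluvastatin changed 1930 genes (10.5%), of which 1236 rose (6.71%) and 694 fell (3.77%). Zoledronate changed 5888 genes (32.0%), of which 2826 rose (15.3%) and 3062 fell (16.6%). Both drugs moved 1626 genes in the same direction, which is 84.2% of the fluvastatin genes and 27.6% of the zoledronate genes. Without the replicate block, which compares each treated array with the control of its own number, 248 genes differed, 663 passed with fluvastatin and 4380 with zoledronate. Only the 16 arrays gave 644 differing genes and array weights 3132. Leaving out lot I replicate 2, 3 or 4 gave 454, 500 or 362 differing genes, and leaving out lot II replicate 2, 3 or 4 gave 673, 588 or 632. In 1406 of the 1626 genes moved by both drugs the estimate was larger with zoledronate. Across all genes the effects of the drugs had a Pearson's r of 0.70, a description over genes that are not independent replicates. When each array was normalized anew by quantiles, 57.1% of the differing genes were higher with fluvastatin instead of 71.9%, and with median centring 76.6%.

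**Figure D1:**
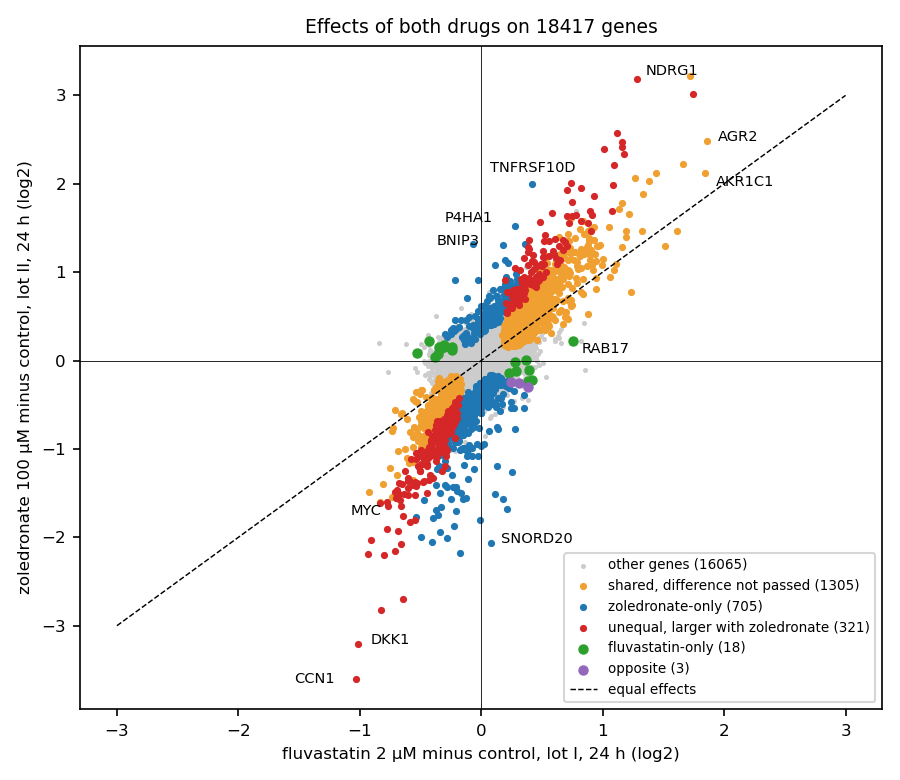
Each point is 1 gene, with the fluvastatin effect (log2) on the horizontal and the 100 µM zoledronate effect (log2) on the vertical axis; colours mark the classes and the dashed line equal effects. The 321 unequal genes (red) lie on the zoledronate side of that line, the 705 zoledronate-only genes (blue) near the vertical axis, and the 18 fluvastatin-only genes (green) are few.

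A gene was called moved by 1 drug only where that drug's effect and the difference passed and the other drug's effect did not. On that rule 705 genes (3.83%) responded to zoledronate only, 156 rising and 549 falling. In 675 of the 705 the 95% interval of the fluvastatin effect stayed within 1.5-fold of no change. The interval of the zoledronate effect did so too in 243 of the 705, so this bound does not part the drugs for those genes. The median zoledronate effect of the class was −0.44. Fluvastatin alone moved 18 genes (0.0977%), 8 up and 10 down. A further 321 genes (1.74%) moved with both drugs in unequal measure, more with zoledronate in every case, 123 rising and 198 falling. The reverse, a shared change that was larger with fluvastatin, was called in 0 genes by limma, although 220 shared genes had the larger estimate with fluvastatin. Of those 220, 3 had an unadjusted p of the difference under 0.05, and weighting the arrays by their quality called 2. Another 3 genes moved in opposite directions, 1305 (7.09%) moved with both drugs without a difference that passed, and in 18 the difference alone passed. For 999 of the 1305 shared genes the 95% interval of the difference lay within 1.5-fold. This held for 14701 of all 18417 genes, so it does not mark out the shared class. A call with zoledronate and none with fluvastatin does not make a gene specific to zoledronate: of 4259 such genes, 3554 had no difference that passed.

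The fluvastatin arrays of replicate 1 stood apart from the other three pairs in the size of their response. Over the 123 unequal genes that rose, the median fluvastatin change was 0.80 in pair 1 and 0.26, 0.37 and 0.35 in pairs 2, 3 and 4, whereas zoledronate gave 1.00, 1.14, 0.99 and 0.92. Over the 549 zoledronate-only genes that fell it was −0.18 in pair 1 and −0.04, −0.06 and −0.01 in the others, against −0.49, −0.47, −0.51 and −0.57 with zoledronate. Without lot I replicate 1 the fluvastatin calls dropped from 1930 to 299 (1115 and 1102 without replicate 3 or 4), while the differing genes grew from 1065 to 1603, and 971 of the 1065 were still called. Without that pair the zoledronate-only class held 1425 genes, the unequal class 137 and the shared class 143. The unequal class also shrank without lot I replicate 2, 3 or 4, to 134, 109 and 103, and the zoledronate-only class then held 297, 368 and 254. What set this pair apart was not tested.

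**Figure D2:**
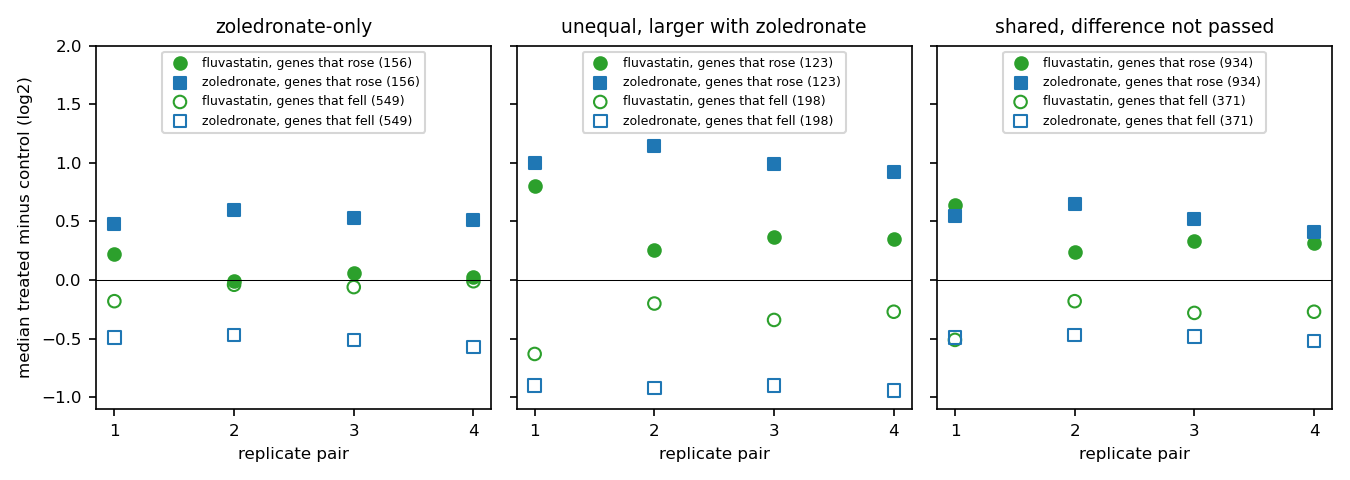
Median treated minus control change (log2) in each replicate pair, for the genes of 3 classes, with fluvastatin as circles and zoledronate as squares, filled for genes that rose with zoledronate and open for genes that fell. Zoledronate pairs are even, while fluvastatin pair 1 reaches 0.80 for the unequal genes that rose and the other pairs 0.26 to 0.37.

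The 24 h control groups of the lots, which received no drug, differed from each other. Mock-treated cells of lot II and lot I at 24 h differed in 2894 genes (15.7%, limma without a replicate block). The difference of effects is by arithmetic the sum of 2 gaps, that between the treated arrays (fluvastatin minus zoledronate) and that between the control arrays (lot II minus lot I). In 703 of the 1065 genes the treated gap was the larger of both, and in 362 the control gap was. The second kind included 279 of the 766 genes higher with fluvastatin and 83 of the 299 lower genes. For some groups and genes below, not all, the control gap is given beside the difference. List medians not given there included −0.07 for glycolysis enzymes, 0.11 for ribosome biogenesis genes, −0.15 for luminal secretory genes and −0.40 for aldo-keto reductases. The part of the control gap in the result was not tested beyond this split.

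YAP and TAZ drive genes for adhesion and growth in spread cells, and 9 of their 23 measured targets fell less with fluvastatin than with zoledronate. Of the 23, 15 fell and 0 rose with fluvastatin (3.77% and 6.71% of all genes), and 17 fell and 1 rose with zoledronate (16.6% and 15.3%). The 9 with a passed difference were all higher with fluvastatin, where 4.16% of all genes were. Median effects were −0.34 with fluvastatin and −0.73 with zoledronate, against −0.01 and 0.01 over all genes. The 9 are the unequal genes CCN1, CCN2, ANKRD1, TGFB2, F3, AJUBA, ASAP1, CRIM1 and FJX1. The count was 7 without the replicate block and 13 without lot I replicate 1. The list's median control gap was 0.15 and its treated gap 0.19, and for ASAP1 the control gap was 0.81 in a difference of 0.74.

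The promoters of CCN2 and ANKRD1 are shown because both genes were among the most unequal and both carry the core of the site bound by TEAD, the DNA-binding partner of YAP and TAZ. The motif searched was CATTCC, or its reverse complement GGAATG, in the 250 bases before the gene start, on RefSeq sequence of build GRCh38.p14. It was present in 6 of 17 targets with a promoter in the table (35.3%) and in 11.9% of 27305 promoters. The list holds known targets, so its share is no independent result. Over the unequal genes that fell, 26 of 155 held the motif (16.8%), and over the zoledronate-only genes that fell, 25 of 421 (5.94%). Among 14239 tested genes with a promoter it was 9.99%. The letters CACGTG and TCACNCCAC were searched as well and are not described here. The window of CCN2 is chr6:131951373-131951622 and that of ANKRD1 chr10:90921088-90921337, both on the minus strand, and capitals mark the matches. A match describes the letters and is not evidence of binding.

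CCN2: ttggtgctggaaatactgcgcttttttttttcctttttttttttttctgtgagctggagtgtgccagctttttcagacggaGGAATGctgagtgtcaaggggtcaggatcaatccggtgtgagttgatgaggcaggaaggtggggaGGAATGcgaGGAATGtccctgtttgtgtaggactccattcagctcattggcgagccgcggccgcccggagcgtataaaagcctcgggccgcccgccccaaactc

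ANKRD1: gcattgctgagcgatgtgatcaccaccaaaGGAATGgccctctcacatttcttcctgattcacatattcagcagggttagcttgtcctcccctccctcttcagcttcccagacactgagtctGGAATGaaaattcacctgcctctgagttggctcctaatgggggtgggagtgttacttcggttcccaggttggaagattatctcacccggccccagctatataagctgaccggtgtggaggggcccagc

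In CCN2 the 3 matches begin 169, 104 and 95 bases before the start, and in ANKRD1 the 2 matches begin 220 and 128 bases before it.

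CCN1 codes for a secreted matrix protein that binds integrins. Its levels in replicates 1 to 4 were 11.51, 11.61, 11.26 and 10.99 in the lot I controls and 9.38, 11.28, 10.4 and 10.19 with fluvastatin. In lot II they were 11.94, 11.88, 11.81 and 11.68 in the controls and 9.06, 8.12, 7.95 and 7.77 with zoledronate. All 4 zoledronate arrays lay below every other array, whereas the second fluvastatin array overlapped the controls and the first was close to the highest zoledronate array. CCN1 fell by 1.03 ± 0.24 with fluvastatin (adjusted p = 0.0077), a 2.04-fold decrease, and by 3.6 ± 0.24 with zoledronate (adjusted p = 1.7e-10), a 12.2-fold decrease. The difference was 2.57 ± 0.34 (95% interval 1.87 to 3.27, adjusted p = 0.00015), of which 0.49 was the control gap. Without lot I replicate 1 the fluvastatin effect was −0.66 and no longer passed (adjusted p = 0.15).

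CCN2, also known as connective tissue growth factor, behaved alike, with levels of 11.56, 10.96, 10.88 and 10.74 in lot I controls and 9.77, 10.67, 10.2 and 10.19 with fluvastatin. The lot II controls stood at 11.39, 11.4, 11.34 and 11.26 and the zoledronate arrays at 8.72, 8.47, 8.46 and 8.45. No treated array reached a control of its lot, and the zoledronate arrays were the lowest of the 16. CCN2 fell by 0.82 ± 0.20 with fluvastatin (adjusted p = 0.011) and by 2.82 ± 0.20 with zoledronate (adjusted p = 5.6e-10), a difference of 2.00 ± 0.29 (adjusted p = 0.00024). For ANKRD1, a stress-induced ankyrin repeat protein, control levels were 12.77 to 12.93 in lot I and 12.92 to 13.01 in lot II. Fluvastatin arrays held 11.17, 12.74, 12.49 and 12.47 of it and zoledronate arrays 10.98, 10.14, 10.12 and 9.89. Its fall of 0.65 ± 0.20 with fluvastatin (adjusted p = 0.036) came largely from replicate 1, without which the effect was −0.31 (adjusted p = 0.42), and its fall with zoledronate was 2.70 ± 0.20 (adjusted p = 5.9e-10). The difference for ANKRD1 was 2.06 ± 0.28 (adjusted p = 0.00015) and passed in 17 of 17 alternatives.

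TGFB2, a secreted growth factor, was at 9.15, 9.81, 9.59 and 9.81 in lot I controls and at 7.78, 9.52, 9.01 and 9.2 with fluvastatin. In lot II it was at 9.92, 9.61, 9.5 and 9.26 in controls and at 7.77, 7.44, 7.28 and 7.19 with zoledronate. Only the first fluvastatin array came down to the level of the zoledronate arrays. TGFB2 differed by 1.44 ± 0.24 between the drugs (adjusted p = 0.00071), with a control gap of −0.02. F3, the tissue factor that starts clotting, fell by 0.64 with fluvastatin and by 1.76 with zoledronate (difference 1.11 ± 0.20, adjusted p = 0.0018). Other targets moved more evenly: AXL, a receptor tyrosine kinase, fell by 0.50 and 0.73 (difference 0.23 ± 0.11, adjusted p = 0.22). AMOTL2, a binding partner of YAP, fell by 0.83 and 1.60, and its difference of 0.77 missed the threshold (adjusted p = 0.056). IGFBP3, which binds insulin-like growth factors, and FOXF2, a forkhead factor, fell with fluvastatin, by 0.26 and 0.27, while their zoledronate effects of −0.15 and −0.07 did not pass, nor did their differences (adjusted p = 0.62 and 0.25).

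Among 12 genes tied to bone metastasis, the difference passed in 1, where 5.78% of all genes differed. This was DKK1, a secreted Wnt inhibitor that slows bone formation. DKK1 stood at 11.09, 11.25, 11.1 and 10.99 in lot I controls and at 8.89, 10.87, 10.24 and 10.37 with fluvastatin. The lot II controls gave 11.16, 11.08, 11.01 and 10.84 and the zoledronate arrays 8.6, 7.8, 7.41 and 7.43. Fluvastatin arrays all lay below the controls of lot I and above all zoledronate arrays. DKK1 fell 2.02-fold with fluvastatin (log2 effect −1.01 ± 0.21, adjusted p = 0.0035) and 9.25-fold with zoledronate (−3.21 ± 0.21, adjusted p = 1.5e-10). Its difference of 2.19 ± 0.30 (adjusted p = 0.00015) was as large between the treated arrays alone, at 2.28, with a control gap of −0.09.

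**Figure D3:**
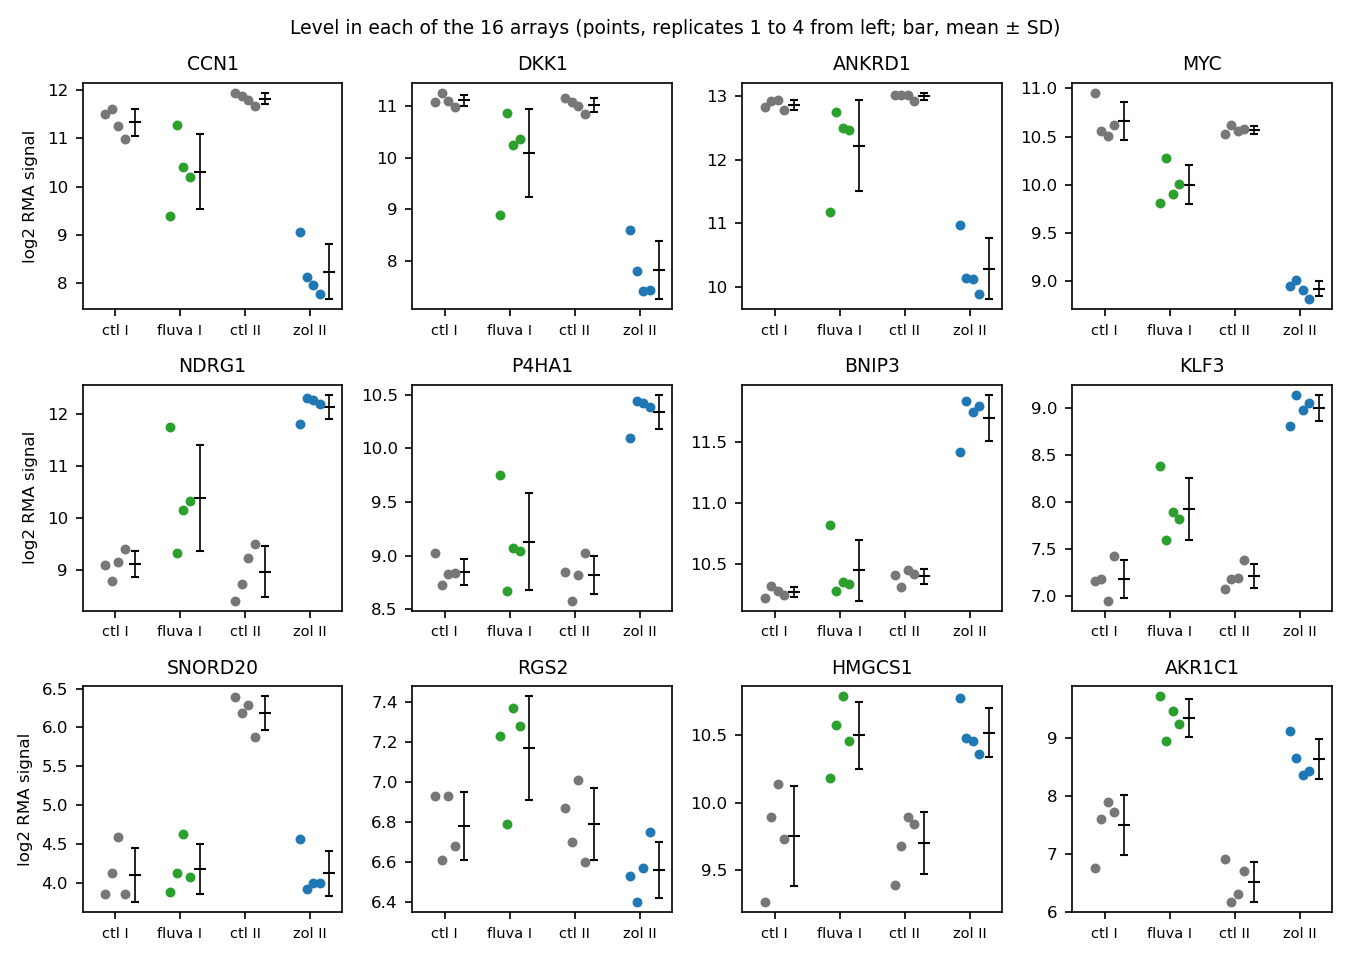
Log2 RMA level of 12 genes in each of the 16 arrays, as points in the order of replicates 1 to 4, with mean ± SD beside them, for control and fluvastatin arrays of lot I and control and zoledronate arrays of lot II. CCN1, DKK1, ANKRD1 and MYC are lowest and NDRG1, P4HA1 and BNIP3 highest in the zoledronate arrays, while SNORD20 is high only in the lot II controls at 5.88 to 6.39.

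Genes of actin and of the serum response factor SRF followed in smaller number. Of 19 measured, 6 fell and 1 rose with fluvastatin (3.77% and 6.71% of all genes), and 11 fell and 2 rose with zoledronate (16.6% and 15.3%). The difference passed in 3, all higher with fluvastatin (4.16% of all genes). These were CALD1, which binds actin and tropomyosin, at 0.90 ± 0.12 (adjusted p = 0.00015), LIMA1 at 0.50 and CNN2 at 0.36. Of the 3, only CALD1 was still called without the replicate block.

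Of 19 hypoxia targets, 12 rose more with zoledronate than with fluvastatin. These are genes switched on by the HIF factors when oxygen is low, and glycolysis enzymes are among those that HIF is known to raise. With fluvastatin 10 of 19 hypoxia targets rose and 0 fell (6.71% and 3.77% of all genes), and with zoledronate 18 rose and 1 fell (15.3% and 16.6%). The difference passed in 12 of 19, all lower with fluvastatin, where 1.62% of all genes were. Median effects were 0.35 with fluvastatin and 1.00 with zoledronate, with a median control gap of 0.00 and a treated gap of −0.64. Among 19 glycolysis genes, 5 rose with fluvastatin and 13 with zoledronate, 0 fell with either, and the difference passed in 9, again all lower with fluvastatin. Without the replicate block these counts were 9 and 4, and without lot I replicate 1 they were 14 and 9.

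Promoters of P4HA1 and BNIP3 are shown because both rose with zoledronate only and both hold the core letters of the HIF site. The motif was ACGTG, or its reverse complement CACGT, in the same 250 bases. It occurred in 9 of 16 hypoxia targets with a promoter in the table (56.2%), in 8 of 18 glycolysis genes (44.4%) and in 18.7% of all 27305 promoters. The hypoxia list holds known targets, so its share is no independent result. Over the zoledronate-only genes that rose, 27 of 133 held it (20.3%), against 21.1% of 14239 tested genes with a promoter. Among the unequal genes it was in 24 of 92 that rose (26.1%) and 44 of 155 that fell (28.4%). The ribosome biogenesis genes, which fell with zoledronate, held it in 7 of 18 (38.9%). The window of P4HA1 is chr10:73096867-73097116 and that of BNIP3 chr10:131981924-131982173, both on the minus strand of GRCh38.p14 as RefSeq gives them.

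P4HA1: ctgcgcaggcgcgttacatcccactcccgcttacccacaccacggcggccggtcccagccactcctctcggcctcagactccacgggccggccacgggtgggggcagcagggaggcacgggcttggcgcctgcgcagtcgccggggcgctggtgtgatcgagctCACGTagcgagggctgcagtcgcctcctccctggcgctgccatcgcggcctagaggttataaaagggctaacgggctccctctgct

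BNIP3: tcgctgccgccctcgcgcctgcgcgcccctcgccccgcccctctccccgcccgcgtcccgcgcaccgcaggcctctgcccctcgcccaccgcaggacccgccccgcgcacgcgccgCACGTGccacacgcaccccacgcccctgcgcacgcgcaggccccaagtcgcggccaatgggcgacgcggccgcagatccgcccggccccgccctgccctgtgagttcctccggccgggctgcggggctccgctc

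P4HA1 has 1 match, 86 bases before the start, and BNIP3 has 2 that overlap on opposite strands, 134 and 133 bases before it.

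P4HA1, a subunit of the enzyme that hydroxylates prolines in collagen, stood at 9.02, 8.73, 8.83 and 8.84 in lot I controls and at 9.75, 8.67, 9.07 and 9.04 with fluvastatin. In lot II it was 8.85, 8.58, 8.82 and 9.02 in controls and 10.1, 10.44, 10.42 and 10.39 with zoledronate. Only the zoledronate arrays were separate from all others, and the second fluvastatin array was below every lot I control. P4HA1 rose by 1.52 ± 0.10 with zoledronate (adjusted p = 2.2e-10), and its fluvastatin effect was 0.28 ± 0.10 (95% interval 0.07 to 0.49, adjusted p = 0.089). The difference of −1.24 ± 0.15 (adjusted p = 4.4e-05) had a control gap of −0.04. BNIP3, a mitochondrial protein that marks mitochondria for removal, gave 10.22, 10.32, 10.28 and 10.25 in lot I controls and 10.82, 10.28, 10.35 and 10.34 with fluvastatin. Lot II controls held 10.41, 10.31, 10.45 and 10.42 and zoledronate arrays 11.42, 11.84, 11.75 and 11.8. Apart from replicate 1 the fluvastatin arrays of BNIP3 were at or near the control level. The zoledronate rise of BNIP3 was 1.30 ± 0.09 (adjusted p = 1.5e-10), the fluvastatin effect 0.18 ± 0.09 (adjusted p = 0.20), or 0.04 without lot I replicate 1,, and the difference −1.12 ± 0.12 (adjusted p = 1.8e-05).

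NDRG1, a stress-responsive gene named for its repression by MYC proteins, had the largest zoledronate rise of the unequal genes. It stood at 9.1, 8.79, 9.16 and 9.41 in lot I controls and 11.76, 9.32, 10.15 and 10.34 with fluvastatin. Levels in lot II were 8.41, 8.74, 9.24 and 9.51 in controls and 11.82, 12.32, 12.27 and 12.2 with zoledronate. Fluvastatin arrays ranged from below the highest lot I control to just below the zoledronate arrays. NDRG1 rose 2.43-fold with fluvastatin (1.28 ± 0.26, adjusted p = 0.0032) and 9.06-fold with zoledronate (3.18 ± 0.26, adjusted p = 3.7e-09). The difference was −1.90 ± 0.37 (95% interval −2.67 to −1.13, adjusted p = 0.0035).

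PDK1, a kinase that inhibits pyruvate dehydrogenase, rose by 0.38 ± 0.09 with fluvastatin (adjusted p = 0.0073) and by 1.28 ± 0.09 with zoledronate (adjusted p = 2.6e-10). Its levels were 8.39, 8.12, 8.29 and 8.41 in lot I controls, 9.09, 8.29, 8.66 and 8.7 with fluvastatin and 9.93, 10.34, 10.31 and 10.24 with zoledronate. The lot II controls of PDK1, at 8.64, 8.8, 9.14 and 9.1, were themselves above lot I by 0.62, opposite in sign to the difference of −0.90 ± 0.12 (adjusted p = 0.00017). BHLHE40, a transcriptional repressor of clock and metabolic genes, rose by 1.16 and 2.47 with a difference of −1.31 ± 0.29 (adjusted p = 0.0092) that was lost without the replicate block (adjusted p = 0.061). The demethylase gene KDM3A differed by −0.87 ± 0.15 (adjusted p = 0.001), and BNIP3L, a relative of BNIP3, by −0.81 ± 0.13 (adjusted p = 0.00045).

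Other members of the hypoxia list rose evenly or leaned the other way. VEGFA, the vascular growth factor, rose by 0.95 ± 0.16 with fluvastatin and 0.93 ± 0.16 with zoledronate, a difference of 0.02 ± 0.23 (adjusted p = 0.98). HIF1A itself rose by 0.68 with fluvastatin and 0.41 with zoledronate (difference 0.26 ± 0.09, adjusted p = 0.099). DDIT4, an inhibitor of mTORC1, rose by 1.26 and 2.07 without a difference that passed (adjusted p = 0.12). ADM was the 1 hypoxia target that fell with zoledronate, by 0.29, and its fluvastatin estimate was also −0.29.

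Within glycolysis the differing genes included isoforms and regulators rather than each step. PFKFB4 and PFKFB3, which make the activator of phosphofructokinase, differed by −1.08 ± 0.18 (adjusted p = 0.00096) and −0.65 ± 0.10 (adjusted p = 0.00052). PFKL, the liver-type phosphofructokinase, had a fluvastatin effect of −0.03 and rose by 0.56 with zoledronate (difference −0.59, adjusted p = 0.00025). ENO2, the neuronal-type enolase, stood at 8.43, 8.62, 8.59 and 8.52 in lot I controls, 9.23, 8.87, 8.8 and 8.82 with fluvastatin, 8.63, 8.67, 8.67 and 8.77 in lot II controls and 10.12, 10.13, 10.07 and 9.89 with zoledronate. Both treated groups of ENO2 were above their controls without overlap, and the difference was −0.98 ± 0.15 (adjusted p = 0.00034). The common forms ENO1 (0.01 with fluvastatin, 0.04 with zoledronate) and GAPDH (0.04 and 0.06) did not pass with either drug.

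**Figure D4:**
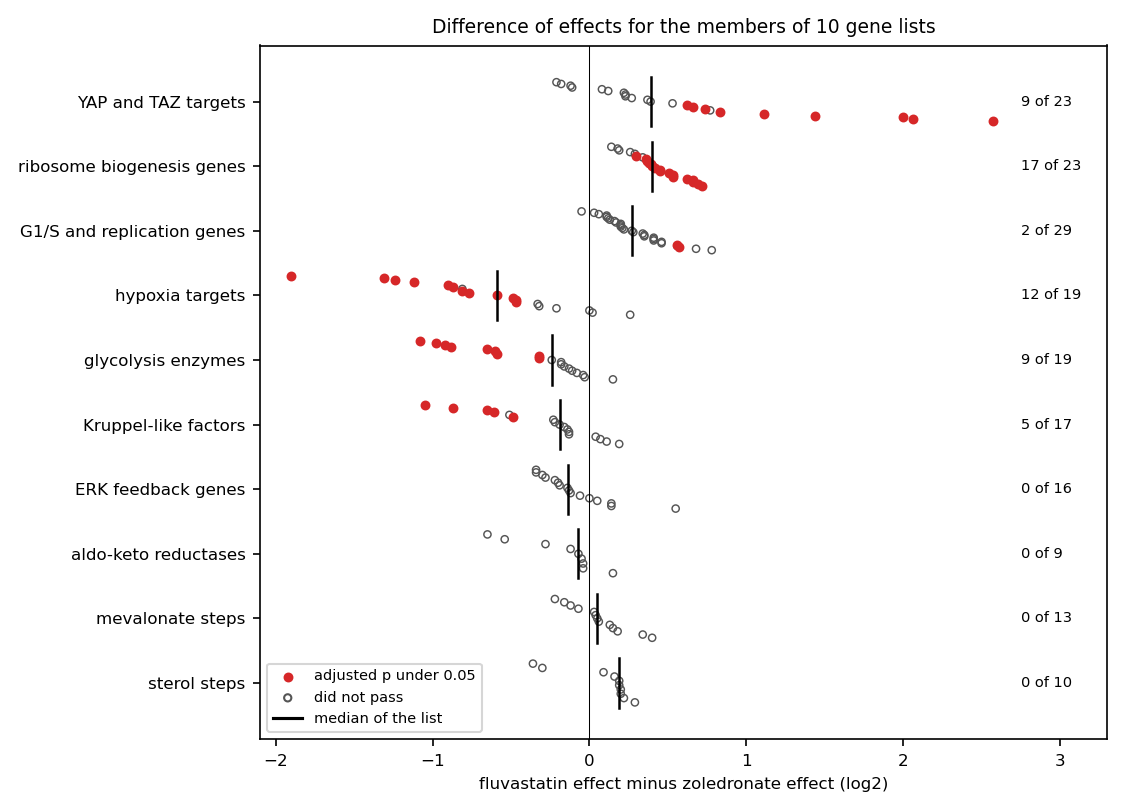
Difference of effects (fluvastatin minus zoledronate, log2) for every measured member of 10 gene lists, filled red where the adjusted p was under 0.05, with the list median as a bar and the count of called members at the right. The medians of YAP and TAZ targets and ribosome biogenesis genes lie to the right of 0, and those of hypoxia targets and glycolysis enzymes to the left. Some members of the YAP and TAZ, hypoxia and glycolysis lists lie on the other side of 0. Of the mevalonate steps 0 of 13 and of the sterol steps 0 of 10 were called.

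MYC and 10 of 23 genes that build ribosomes fell with both drugs and more with zoledronate. MYC is the transcription factor known to drive ribosome biogenesis. Its levels were 10.95, 10.56, 10.51 and 10.62 in lot I controls, 9.81, 10.28, 9.9 and 10.01 with fluvastatin, 10.53, 10.62, 10.56 and 10.58 in lot II controls and 8.95, 9.01, 8.91 and 8.81 with zoledronate. None of the treated arrays overlapped the controls, and zoledronate arrays were below all fluvastatin arrays. MYC fell by 0.66 ± 0.10 with fluvastatin (adjusted p = 0.00036) and by 1.65 ± 0.10 with zoledronate (adjusted p = 1e-10), a difference of 0.99 ± 0.14 (adjusted p = 0.00025). Unlike CCN1, MYC still fell with fluvastatin without lot I replicate 1, by 0.50 (adjusted p = 0.0091). MYC was the 1 gene of 12 in the MYC and MAX network with a difference, where 5.78% of all genes differed.

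Of 23 ribosome biogenesis genes, 13 fell with fluvastatin (3.77% of all genes) and 23 with zoledronate (16.6%), and 0 rose with either by limma. The difference passed in 17 of 23, 10 in the unequal and 7 in the zoledronate-only class, all higher with fluvastatin (4.16% of all genes), with median effects of −0.27 and −0.72. That count was 6 without the replicate block, 12 with only the 16 arrays, and 9, 9 and 8 without lot I replicate 2, 3 and 4. The fluvastatin effect did not pass in NCL, NPM1, FBL, NOP58, WDR12 and 5 others. DKC1, the pseudouridine synthase of H/ACA particles, stood at 9.96, 9.99, 10.05 and 9.73 in lot I controls and 9.26, 9.79, 9.68 and 9.52 with fluvastatin. In lot II it was 10.12, 10.12, 9.96 and 9.97 in controls and 9.19, 8.98, 8.83 and 8.84 with zoledronate. The zoledronate arrays of DKC1 were the lowest and the fluvastatin arrays overlapped their controls in 1 array. DKC1 differed by 0.72 ± 0.10 (adjusted p = 0.00024) with a control gap of 0.11. WDR43, a protein of the early ribosomal subunit processome, differed by 0.62 ± 0.10 (adjusted p = 0.00081) and NOP58, a core protein of C/D particles, by 0.53 ± 0.10 (adjusted p = 0.002). NPM1 and FBL, abundant nucleolar proteins, fell by 0.25 and 0.33 with zoledronate, and their differences did not pass (adjusted p = 0.12 and 0.27). UTP15 and PNO1, which were chosen after their values were seen, fell with zoledronate by 1.02 and 0.99 and had fluvastatin effects of −0.18 and −0.15 that did not pass.

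Small nucleolar RNAs (snoRNAs), which guide the modification of ribosomal RNA, gave the largest differences among the zoledronate-only genes, and for them the controls carried most of the difference. Of 176 snoRNA genes, 63 differed, 45 of 115 box C/D and 18 of 61 box H/ACA genes, and all 63 were higher with fluvastatin, against 4.16% of all genes. Their median effect was −0.17 with fluvastatin and −1.26 with zoledronate. The lot II controls were above the lot I controls in all 63, by a median of 0.99, while the signed treated gap (fluvastatin minus zoledronate) had a median of 0.10. Treated gaps of both signs occurred, such as −0.83 for SNORD45B and 1.49 for SNORD14E, so the median does not give their size. In 58 of the 63 the control gap was larger than the treated gap, and in 57 the controls of the lots differed by the adjusted p. The 63 were picked by a difference that holds the lot II control level as a term. A high level of those controls is therefore partly given by the choice of genes. Over all measured snoRNA genes the median control gap was 0.10 for the 115 box C/D and 0.26 for the 61 box H/ACA genes. Over the 63 genes the median level was 8.15 ± 0.22 (SD, n = 4) in the 24 h controls of lot II. In each of the other 9 groups of the study the mean of that median lay between 6.80 and 7.39, including the 48 h controls of lot II at 6.88 ± 0.30 and the 24 h controls of lot I at 7.15 ± 0.25. For these genes the high level was seen in 1 control group and not in the lot as a whole, and what raised it was not tested.

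SNORD20, a box C/D snoRNA, stood at 3.85, 4.13, 4.59 and 3.85 in lot I controls, 3.88, 4.13, 4.63 and 4.07 with fluvastatin, 6.39, 6.18, 6.29 and 5.88 in lot II controls and 4.56, 3.92, 4.0 and 4.0 with zoledronate. The lot II controls were above all the other arrays, and the remaining groups overlapped. Its difference of 2.14 ± 0.30 (adjusted p = 0.0002) consisted of a control gap of 2.08 and a treated gap of 0.06. SNORD82 had means of 5.30 ± 0.25 in lot I controls, 5.12 ± 0.23 with fluvastatin, 6.99 ± 0.41 in lot II controls and 4.82 ± 0.26 with zoledronate (SD, n = 4), with a control gap of 1.69 in a difference of 2.00 ± 0.20 (adjusted p = 1.2e-05). SNORA33, of the H/ACA kind, differed by 1.79 ± 0.23 (adjusted p = 0.00013) with a control gap of 1.71. SNORD38B was split more evenly, with 0.99 between controls and 0.75 between treated arrays.

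Many snoRNAs are cut from introns of host genes, and the hosts moved far less. For 34 of the 63 snoRNAs, 1 measured host gene encloses them in RefSeq's annotation (GRCh38.p14), 24 hosts in all. The difference passed in 4 of the 24 hosts, where 5.78% of all genes differed. The median host difference was 0.13 and the median host zoledronate effect −0.22. NCL, the nucleolin gene that holds SNORD20 and SNORD82, stood at 12.27, 12.45, 12.48 and 12.15 in lot I controls, 12.05, 12.35, 12.35 and 12.24 with fluvastatin, 12.68, 12.68, 12.71 and 12.6 in lot II controls and 12.25, 12.3, 12.29 and 12.26 with zoledronate. Here too the lot II controls were the highest group. NCL differed by 0.30 ± 0.09 (adjusted p = 0.045) with a control gap of 0.33, and the call was lost without the replicate block (adjusted p = 0.23).

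Enzymes that attach and trim isoprenoids on proteins showed small differences. Of 9 prenylation enzymes, 3 differed, all higher with fluvastatin (4.16% of all genes) and all in the zoledronate-only class (3.83%). They were PGGT1B, the geranylgeranyl transferase I subunit (0.39 ± 0.10, adjusted p = 0.023), RABGGTB, a subunit of the Rab transferase (0.38 ± 0.08, adjusted p = 0.0061), and ZMPSTE24, the protease that trims prenylated prelamin A (0.53 ± 0.10, adjusted p = 0.0038). Each fell with zoledronate, by 0.25, 0.49 and 0.45, and 0 of the 3 were called without the replicate block. RABGGTB had a control gap of 0.62.

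Kruppel-like factors, zinc finger regulators of which several respond to statins, differed in 5 of 17, all lower with fluvastatin (1.62% of all genes). With fluvastatin 6 rose and 1 fell (6.71% and 3.77% of all genes), and with zoledronate 7 rose and 3 fell (15.3% and 16.6%). KLF3, a repressor, stood at 7.16, 7.18, 6.95 and 7.43 in lot I controls, 8.38, 7.6, 7.89 and 7.82 with fluvastatin, 7.07, 7.18, 7.19 and 7.38 in lot II controls and 8.81, 9.14, 8.98 and 9.05 with zoledronate. The groups of KLF3 formed 3 separate ranges, with controls lowest, fluvastatin between and zoledronate highest. KLF3 rose by 0.74 ± 0.12 (adjusted p = 0.00039) and 1.79 ± 0.12 (adjusted p = 1.5e-10), a difference of −1.05 ± 0.16 (adjusted p = 0.0005). KLF6, KLF7, KLF9 and KLF13 differed by −0.61, −0.87, −0.49 and −0.65, and all 4 calls were lost without the replicate block. A second probe set of KLF13 changed less, by 0.06 with fluvastatin and 0.21 with zoledronate. KLF2, the best known statin-induced member, rose by 0.66 and 1.17, and its difference of −0.51 ± 0.16 did not pass (adjusted p = 0.064).

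Of the mevalonate steps 0 of 13 differed by limma, with 2 at an unadjusted p under 0.05 and 1 called without lot I replicate 1 or with array weights. HMGCS1, which makes HMG-CoA, stood at 9.26, 9.89, 10.14 and 9.73 in lot I controls, 10.18, 10.58, 10.79 and 10.46 with fluvastatin, 9.39, 9.68, 9.89 and 9.84 in lot II controls and 10.78, 10.48, 10.46 and 10.36 with zoledronate. All fluvastatin and zoledronate arrays were above all controls and the treated groups overlapped. HMGCS1 rose by 0.75 ± 0.16 with fluvastatin (adjusted p = 0.0051) and 0.82 ± 0.16 with zoledronate (adjusted p = 0.00035), a difference of −0.07 with a 95% interval of −0.55 to 0.41. Without lot I replicate 1 its fluvastatin rise was 0.69 and did not pass (adjusted p = 0.081). Of 13 measured mevalonate steps 3 rose with fluvastatin (6.71% of all genes) and 5 rose and 2 fell with zoledronate (15.3% and 16.6%). FDPS, the target of zoledronate, had effects of 0.05 and −0.08 (difference 0.13 ± 0.14, adjusted p = 0.65).

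Among 10 sterol steps after farnesyl diphosphate, 6 rose with fluvastatin (6.71% of all genes) and 3 with zoledronate (15.3%), and 0 differed by limma (5.78%). At an unadjusted p under 0.05, 2 differed, 1 was called without lot I replicate 1, 2 without lot II replicate 4 and 4 with array weights. The sterol step with the smallest p was LSS, lanosterol synthase, with rises of 0.33 and 0.63 (difference −0.30 ± 0.09, adjusted p = 0.057, control gap −0.42). INSIG1, which holds SREBP back when sterols are plentiful, rose by 0.40 and 0.61 (adjusted p = 0.43 for the difference). Its relative INSIG2 rose by 0.19 and 0.91, a difference of −0.72 ± 0.09 (adjusted p = 5e-05) that passed in all 17 alternatives. With SREBF1 (−0.49) and LPIN1 (−0.41), INSIG2 made up the 3 of 15 SREBP regulators and lipid targets that differed (5.78% of all genes). The calls of SREBF1 and LPIN1 were lost without the replicate block.

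Of 17 genes of secretory luminal cells, 7 rose with fluvastatin (6.71% of all genes), and 9 rose and 1 fell with zoledronate (15.3% and 16.6%). The difference passed in 3 (5.78% of all genes), ELF3, KRT19 and KRT7, and in 1 of 17 without the replicate block. FOXA1, GATA3, XBP1, EHF, AGR3 and KRT18 passed with neither drug. KRT7, a simple epithelial keratin, fell with zoledronate by 0.62 and differed by 0.53 in the direction opposite to ELF3 (−1.38) and KRT19 (−0.83). AGR2, a disulfide isomerase of mucus cells, stood at 4.56, 4.96, 6.01 and 5.83 in lot I controls, 7.65, 6.38, 7.49 and 7.28 with fluvastatin, 4.61, 4.7, 4.98 and 5.63 in lot II controls and 6.79, 7.74, 7.56 and 7.78 with zoledronate. Neither treated group overlapped the controls, and both treated groups overlapped each other. AGR2 rose by 1.86 ± 0.28 (adjusted p = 0.00028) and 2.49 ± 0.28 (adjusted p = 2.5e-07), with a difference of −0.63 whose 95% interval ran from −1.45 to 0.19. SPDEF, a transcription factor of goblet cells, rose by 1.66 and 2.23 (adjusted p = 0.32 for the difference). ELF3, an epithelial transcription factor, differed, and its levels were 5.74 to 6.07 in lot I controls, 6.15 to 7.32 with fluvastatin, 5.32 to 6.02 in lot II controls and 7.55 to 8.4 with zoledronate. ELF3 rose by 1.01 ± 0.15 (adjusted p = 0.0002) and 2.40 ± 0.15 (adjusted p = 1e-10), a difference of −1.38 ± 0.21 (adjusted p = 0.00035).

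AKR1C1, which reduces steroids and ketones, was at 6.75, 7.61, 7.9 and 7.73 in lot I controls, 9.72, 8.95, 9.47 and 9.25 with fluvastatin, 6.91, 6.17, 6.31 and 6.7 in lot II controls and 9.13, 8.66, 8.36 and 8.43 with zoledronate. Treated arrays were above all controls, and the lot II controls were lower than lot I by 0.98. It rose by 1.85 ± 0.21 (adjusted p = 1.9e-05) and 2.12 ± 0.21 (adjusted p = 3.7e-08), with a difference of −0.28 (95% interval −0.88 to 0.33). AKR1C2 rose by 1.62 and 1.46 and AKR1C3 by 1.38 and 2.03. These paralogs are nearly identical in sequence, so their probes may share signal, and a second AKR1C1 probe set changed by 0.74 and 1.02. In all, 4 of 9 aldo-keto reductases rose with each drug, where 6.71% of all genes rose with fluvastatin and 15.3% with zoledronate. By limma 0 of the 9 differed (1 at an unadjusted p under 0.05, and 1 by array weights or without lot I replicate 1).

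Negative feedback genes of the ERK pathway were alike in number: 10 of 16 rose and 1 fell with each drug. Over all genes 6.71% rose and 3.77% fell with fluvastatin, and 15.3% rose and 16.6% fell with zoledronate. By limma 0 of the 16 differed, against 5.78% of all genes. At an unadjusted p under 0.05, 3 differed, and array weights called 6. The phosphatase DUSP5 rose by 0.41 and 0.75 (adjusted p = 0.11 for the difference) and SPRY4, an inhibitor of receptor signalling, by 0.48 and 0.82 (adjusted p = 0.18). Interferon-stimulated genes rose in 12 of 28 with fluvastatin (6.71% of all genes) and 13 with zoledronate (15.3%), and 2 fell with zoledronate (16.6%). The difference passed in 3 (5.78% of all genes), IFIT5, ISG20 and PSMB8. All 3 calls were lost without the replicate block, and 1 interferon-stimulated gene differed with only the 16 arrays. The count was 0 without lot I replicate 2 or 4 or lot II replicate 4, 5 without lot I replicate 1 and 7 with array weights. IFIH1, which detects double-stranded RNA, gave rises of 0.69 and 0.55 and OAS1 of 0.52 and 0.66, both with an adjusted p of 0.69 for the difference. The controls of lot II were lower than those of lot I in this list, by a median of 0.33.

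Integrin and laminin genes rose in 9 of 20 with fluvastatin (6.71% of all genes) and 13 with zoledronate (15.3%), with 3 differences, all lower with fluvastatin (1.62%). The count was 1 without lot I replicate 4, 5 without lot I replicate 1 and 8 with array weights. ITGB4, the integrin chain of hemidesmosomes, stood at 6.02 to 6.41 in lot I controls, 8.46, 6.8, 6.69 and 7.14 with fluvastatin, 6.27 to 6.41 in lot II controls and 9.26, 8.84, 8.66 and 8.83 with zoledronate. All fluvastatin arrays were between controls and zoledronate arrays. ITGB4 rose by 1.12 ± 0.21 and 2.58 ± 0.21, a difference of −1.45 ± 0.29 (adjusted p = 0.0043, or 0.054 with only the 16 arrays). ITGA10 differed by −1.25 and ITGA5 by −0.54.

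Of 29 G1/S and replication genes 9 fell with fluvastatin (3.77% of all genes) and 24 with zoledronate (16.6%). The difference passed in 2, close to the share of 5.78% over all genes. They were MCM6 of the replicative helicase (0.57 ± 0.12, adjusted p = 0.0054) and UNG, a uracil glycosylase (0.56 ± 0.15, adjusted p = 0.03). That count was 6 without lot I replicate 1, 13 with array weights and 1 without the replicate block. Of 26 mitosis genes 0 fell with fluvastatin by limma (0 at an unadjusted p under 0.05) and 8 with zoledronate, where 3.77% and 16.6% of all genes fell. None of the 26 had a difference that passed, but 3 had an unadjusted p under 0.05, 5 passed with only the 16 arrays and 7 with array weights. Of 14 histone cluster genes 10 fell with zoledronate (16.6% of all genes) and 1 rose with fluvastatin (6.71%). The difference passed in 2 (5.78% of all genes), H2BC14 (1.12, zoledronate-only) and H2BC12, both lost without the replicate block. H2BC12, the 1 that rose, had opposite effects of 0.38 ± 0.10 (adjusted p = 0.015) and −0.30 ± 0.10 (adjusted p = 0.023), a difference of 0.68 ± 0.14 (adjusted p = 0.0052, or 0.096 without the block). The other genes with opposite effects were ATP5MGL, at 0.31 and −0.25, and YAE1, at 0.25 and −0.24, and a second YAE1 probe set gave 0.02 and 0.10.

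Outside these groups TNFRSF10D, a decoy receptor for the death ligand TRAIL, had the largest rise in the zoledronate-only class. It stood at 10.0, 9.88, 10.0 and 9.97 in lot I controls, 11.11, 10.0, 10.28 and 10.14 with fluvastatin, 9.9, 9.86, 10.04 and 10.04 in lot II controls and 11.95, 11.92, 12.0 and 11.94 with zoledronate. Zoledronate arrays were far above all others, and the fluvastatin arrays other than the first lay between 10.0 and 10.28, at or above the highest lot I control. TNFRSF10D rose by 1.99 ± 0.19 (adjusted p = 2e-08), its fluvastatin effect was 0.42 ± 0.19 (95% interval 0.03 to 0.81, adjusted p = 0.16), and the difference was −1.57 ± 0.26 (adjusted p = 0.0009). The membrane protein gene TMEM45A was at 6.62, 7.63, 7.32 and 6.84 in lot I controls, 6.85, 7.33, 6.97 and 7.0 with fluvastatin, 7.3, 6.32, 6.35 and 6.5 in lot II controls and 7.51, 8.25, 8.06 and 7.93 with zoledronate. TMEM45A overlapped between lot I groups, and its difference of −1.39 ± 0.26 (adjusted p = 0.0026) was lost without the replicate block (adjusted p = 0.087).

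The 18 fluvastatin-only genes had small effects, none of them with a difference above 0.65 in size. RAB17, a Rab GTPase of epithelial transport, rose by 0.76 ± 0.11 with fluvastatin (adjusted p = 0.00026) and by an estimated 0.22 ± 0.11 with zoledronate (95% interval −0.01 to 0.46, adjusted p = 0.15). Its levels were 5.58, 6.84, 6.29 and 6.42 in lot I controls, 6.49, 7.41, 7.29 and 6.98 with fluvastatin, 5.67, 6.13, 6.01 and 6.31 in lot II controls and 6.3, 6.13, 6.27 and 6.31 with zoledronate. The groups of lot I overlapped although each pair rose, and the difference was at the threshold (0.54 ± 0.16, adjusted p = 0.049). RGS2, an inhibitor of G protein signalling, was at 6.93, 6.61, 6.93 and 6.68 in lot I controls, 7.23, 6.79, 7.37 and 7.28 with fluvastatin, 6.87, 6.7, 7.01 and 6.6 in lot II controls and 6.53, 6.4, 6.57 and 6.75 with zoledronate. RGS2 rose by 0.38 ± 0.10 with fluvastatin (adjusted p = 0.016), its zoledronate effect was −0.23 ± 0.10 (95% interval −0.44 to −0.02, adjusted p = 0.087), and the difference was 0.61 ± 0.14 (adjusted p = 0.012).

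MAP2K6, a kinase upstream of p38, stood at 5.62, 5.83, 6.44 and 6.01 in lot I controls, 6.07, 6.28, 6.6 and 6.61 with fluvastatin, 5.16, 5.75, 5.65 and 6.01 in lot II controls and 5.27, 5.6, 5.29 and 5.51 with zoledronate. Its groups overlapped within each lot. MAP2K6 rose by 0.41 ± 0.10 with fluvastatin (adjusted p = 0.013) and differed by 0.64 ± 0.15 (adjusted p = 0.012). Without the replicate block the difference passed in neither RAB17 (adjusted p = 0.39), RGS2 (0.14) nor MAP2K6 (0.30). Of the 18 genes 2 were still called without the block, the antisense RNA GAS8-AS1 (difference −0.65 ± 0.14, adjusted p = 0.0054) and TLL1, a protease of the tolloid family (−0.48 ± 0.12, adjusted p = 0.021).

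The lower dose of zoledronate gives values from lot I for the same genes, with controls shared with fluvastatin. At 30 µM and 24 h the zoledronate effect was −0.03 ± 0.24 for CCN1, 0.02 ± 0.21 for DKK1, −0.05 ± 0.10 for MYC and 0.14 ± 0.26 for NDRG1, each with an adjusted p of 0.999. Lot and dose cannot be told apart as the source of the gap between these and the 100 µM values.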

How the data were processed

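Per the submitters' processing notes, RMA was run in Affymetrix Power Tools 1.10.2, and the authors deposited its log2 values and used limma. The genome build is not given in the sources used here, nor is a joint normalization of the lots. Probe sets with exactly 1 gene symbol in the platform annotation were used (19460 of 33297, of which 19433 matched RefSeq, GRCh38.p14). The one with the highest mean was kept per gene, which left 18417 genes.

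All 40 arrays were fitted with limma 3.58.1 in R 4.3.3 (lmFit, eBayes), with 1 block per lot, time and replicate number (16 blocks) and 18 residual degrees of freedom. P-values are two-sided and adjusted by Benjamini-Hochberg over all genes (threshold 0.05). The script was tested on simulated data. The design text calls the 4 replicates independent and treated and control cells paired by day. Same-numbered arrays deviated together in lot I (r from 0.27 to 0.44), but in lot II r was above 0.1 in 1 of 4 pairs (−0.09 to 0.26), so pairing there rests on the design text.

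The members and the 30 gene lists were chosen with earlier results of these data known, and 463 of 501 list entries were measured. The result of 1 list is not reported here. In each class and direction the text names from the 5 genes with the largest difference whose 4 pairs agree in sign (for shared genes, the 5 with the largest smaller effect). From each list it names from up to 6 members with the smallest and 3 with the largest p, and from 17 genes of interest (2 not analysed here). Other names, such as those behind small counts, were chosen after values were seen, as were the snoRNA lists and the split of the difference into gaps. Alternatives were no block, a wider block, only the 16 arrays, quantile normalization anew, median centring, averaged probe sets, removal of dim genes, array weights, a trend of variance with intensity, and leaving out each replicate in turn.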

Additional observations from a re-analysis of the deposited data

Results flagged for a closer look

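Some arrays stood apart from the other 3 of their group in a gene whose levels are given above, by Dixon's test at the 95% level, over 116 groups of 4 arrays where chance flags about 1 in 20. Fluvastatin replicate 1 of lot I was the outlying array for ANKRD1 at 11.17, BNIP3 at 10.82 and ENO2 at 9.23. Zoledronate replicate 1 of lot II was outlying for CCN2 at 8.72, P4HA1 at 10.1, ELF3 at 7.55 and SNORD20 at 4.56. Control replicate 4 of lot II was outlying for ANKRD1 at 12.92.

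The effects of the drugs differed in 1065 named genes by limma's test of the difference itself, and drug goes along with lot there. Of the 12083 probe sets with no gene name, which the report does not use, 117 also differed, 101 higher and 16 lower with fluvastatin.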

How the results depend on the processing

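Without the replicate block the differing genes fell from 1065 to 248 (181 higher and 67 lower with fluvastatin), with 181 zoledronate-only, 2 fluvastatin-only, 0 opposite, 65 unequal and 539 shared genes, 248 in all classes of response and 38 list members or named genes; the lot II pairs hardly deviated together, so the pairing there is not borne out by the arrays. Only the 16 arrays gave 644 (130 lower), 641 in classes, 461 zoledronate-only, 7 opposite and 159 unequal. Removing dim genes gave 37 fluvastatin-only and 7 opposite genes, and an intensity trend 30 and 5. Array weights gave 3132 (1906 higher, 1226 lower), 3001 in classes, 2017 zoledronate-only, 147 fluvastatin-only, 26 opposite, 809 unequal with zoledronate, 2 with fluvastatin and 183 members. Leaving out 1 replicate gave 362 to 1603 differing genes (269 to 985 higher, 93 to 618 lower), 361 to 1568 in classes, 254 to 1425 zoledronate-only, 4 to 19 fluvastatin-only, 0 to 4 opposite, 103 to 235 unequal, 143 to 1424 shared and 51 to 126 members, most of the highest without lot I replicate 1 and most of the lowest without lot I replicate 4. The treated gap was the larger in 703 of the 1065. No direction reversed in the alternatives run.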
